A study of Mus musculus with 6 samples.

Results

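The 7 genes described here encode proteins of the apical surface, the side of an epithelial cell that faces a lumen: the membrane mucins Muc1, Muc4, Muc13, Muc16 and Muc20, the microvillus protein prominin 1 (Prom1) and the sialoglycoprotein Cd24a. They were chosen by name, for what they encode, and matched by identifier to 7 of the 52550 genes listed. Earlier results of these data were known when the members and all gene lists used below were chosen. RNA was measured by sequencing in SOX9-GFP+ cells sorted from livers of CD-1 mouse embryos, in 3 libraries per stage (E16.5 and E18.5), named by replicate letters A to C, from pooled livers. All 6 libraries carry the same Sox9-GFP transgene, whose green fluorescent protein marks cells that use the Sox9 gene, and none had a treatment. Blood cells bearing lineage antigens were removed with magnetic beads before the sort. The labels give embryonic days 16 and 18, whereas the methods of the study give E16.5 and E18.5, which are used here. The sources do not say that each library came from its own pool, so p-values measure only the spread between these libraries, which may be technical.

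Membrane mucins are long, heavily glycosylated proteins anchored in the apical membrane, where they hydrate and shield the cell surface and can keep facing membranes apart. Cholangiocytes, the cells that line bile ducts, arise from hepatoblasts around the portal vein and gather their apical membranes around a lumen before birth. Muc1 is a general marker of the apical membrane of ducts and glands. Muc4 carries growth factor-like domains and binds a receptor tyrosine kinase. Muc13 is a short membrane mucin of gut epithelium that is also found on blood cell progenitors. Muc16 carries the tumour antigen CA125 and is abundant on mesothelium, the sheet that covers the liver and other organs. Muc20 is a small membrane mucin encoded beside Muc4. Prom1, also called CD133, sits in microvilli and other protrusions and marks progenitor cells of several epithelia. Cd24a is a short, lipid-anchored and heavily glycosylated protein found on immature epithelia, B cells and neutrophils.

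All 7 genes are protein-coding and were placed on GRCm38 with the GENCODE vM21 annotation. Muc1 spans 89229057 to 89233381 on chromosome 3, forward strand, and its exons cover 2346 bp. Chromosome 16 holds Muc4 on the forward strand from 32735886 to 32782391, Muc20 on the reverse strand from 32777419 to 32797435 and Muc13 on the forward strand from 33794037 to 33819934. The exons of Muc4 and Muc20 overlap on opposite strands over 627 bp, which is 5.33% of the exon sequence of Muc4 and 15.6% of that of Muc20. Muc16 lies on the reverse strand of chromosome 9 from 18495455 to 18674530 and has 26350 bp of exon sequence, the longest of the 7 genes. Prom1 lies on the reverse strand of chromosome 5 from 43993620 to 44102032, and Cd24a spans 43578284 to 43584265 on chromosome 10, forward strand. Muc13 shares 6.06% of its exon sequence with the antisense gene Gm15657, which reached at most 8.70 TPM. Prom1 shares 5.91% of its exon sequence with the antisense gene Gm16401. The library kit kept the strand, but how strand was treated when reads were counted is not given in the sources used here, so reads in these stretches may be divided or left out. Cd24a resembles the genes Gm15352 (92.3% identity over 259 bp) and Gm6212 (96.8% over 218 bp). Gm15352 reached at most 2.90 TPM, and part of the reads of Cd24a could have been lost to these copies.

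RefSeq start sites on GRCm38.p6 gave 250 bases upstream for 6 of the 7 genes, in 8 windows. The windows of Muc1 and Prom1 are shown because these genes are known from duct epithelium and both had higher means at E18.5, and a Muc13 window because Muc13 fell. They are Muc1 at chr3:89228806-89229055 on the forward strand, Prom1 at chr5:44101737-44101986 on the reverse strand and the downstream Muc13 start at chr16:33794239-33794488 on the forward strand, each 5′ to 3′. Capitals mark exact matches, on either strand, to 5 motifs: the TATA box TATAAA, the GC box GGGCGG, the GATA core AGATAA, the HNF1 half-site GTTAAT and the E-box CACCTG.
Muc1: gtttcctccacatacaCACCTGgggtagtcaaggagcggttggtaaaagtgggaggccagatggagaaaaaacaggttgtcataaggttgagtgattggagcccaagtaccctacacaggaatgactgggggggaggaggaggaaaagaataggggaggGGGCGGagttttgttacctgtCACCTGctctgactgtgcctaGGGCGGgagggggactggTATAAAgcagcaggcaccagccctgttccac
Prom1: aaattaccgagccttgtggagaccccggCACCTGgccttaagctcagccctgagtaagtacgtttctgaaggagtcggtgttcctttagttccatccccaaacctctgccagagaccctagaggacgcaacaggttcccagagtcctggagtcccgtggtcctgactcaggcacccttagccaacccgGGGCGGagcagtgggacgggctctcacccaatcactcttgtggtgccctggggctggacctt
Muc13: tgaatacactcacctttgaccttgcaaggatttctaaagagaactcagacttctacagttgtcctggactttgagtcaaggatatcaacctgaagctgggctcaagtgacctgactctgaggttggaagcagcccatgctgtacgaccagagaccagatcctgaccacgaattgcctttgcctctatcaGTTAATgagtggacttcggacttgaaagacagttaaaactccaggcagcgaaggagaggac
The Muc1 window held a TATA box 31 bases before the start, GC boxes 91 and 49 bases before it and E-boxes 234 and 70 bases before it. The Prom1 window shown held a GC box 62 and an E-box 222 bases before the start. The Muc13 window shown held an HNF1 half-site 61 bases before its start. The upstream Muc13 window, a further Prom1 window at a downstream start and the window of Muc16 held no match. Muc4 had a TATA box 36 bases before the start and Muc20 an E-box 66 bases before it. No window of the members held the GATA core, and no matches overlapped. Of 32851 windows of the same length over all genes, 12.4% held the TATA box, 32.7% the GC box, 9.99% the GATA core, 6.43% the HNF1 half-site and 17.2% the E-box, so each match is a description and not a sign of a factor at work.

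Levels are given as TPM, a transcript's share of its library, which are scaled by gene length and can be compared between genes. Recovered reads, computed from TPM and exon length, came to between 13093937 and 26206374 per library, and every E18.5 library was shallower than every E16.5 library. Cd24a had the highest level of the 7 genes at both stages, above 97.7% of 21819 protein-coding genes at E16.5 and above 99.4% at E18.5. Prom1 followed, above 89.8% and 93.3% of them. The order in every E16.5 library was Cd24a, Prom1, Muc13, Muc1, Muc4, Muc16 and Muc20. At E18.5, Muc1 stood next after Prom1 in every library, Muc16 and Muc13 came next and Muc4 was last. At E16.5 the values of Muc13 and Muc1, of Muc4 and Muc16, and of Muc16 and Muc20 overlapped between libraries, so these neighbours did not differ beyond their spread, although each library gave the same order. At E18.5 this was so for Muc16 and Muc13 alone.

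**Figure D1:**
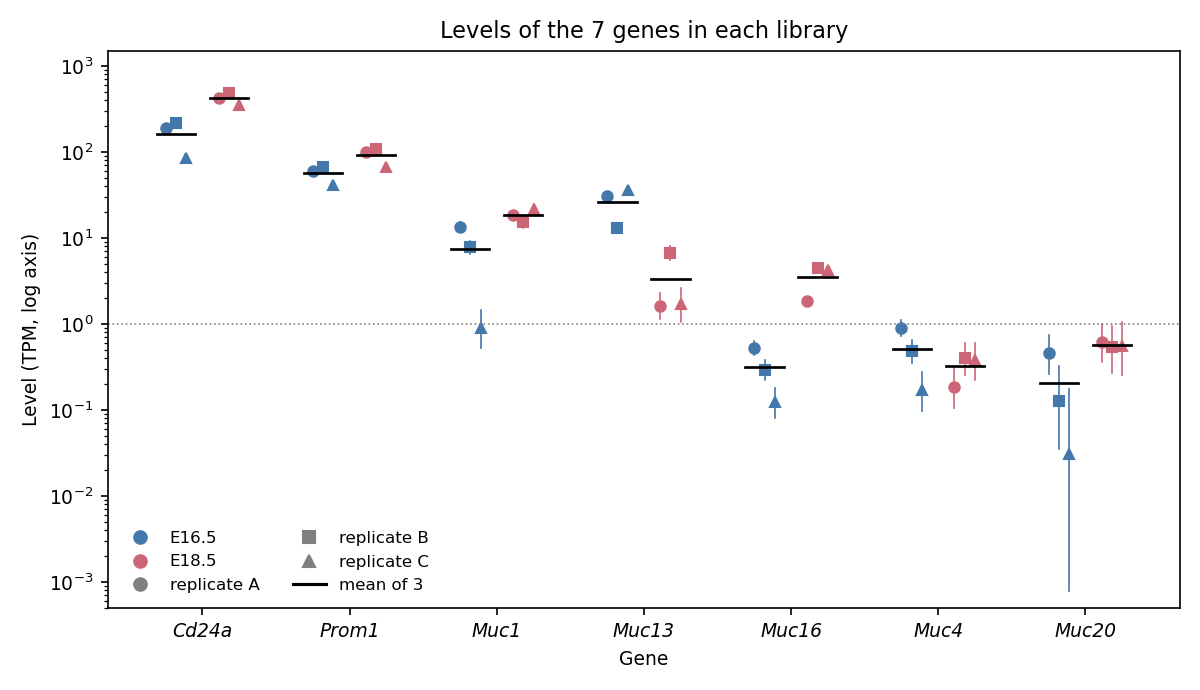
Levels of the 7 genes in TPM (y axis, log scale) for each gene (x axis), with E16.5 in blue and E18.5 in red and 1 symbol per library; black lines are means of 3 libraries, thin vertical lines are 95% exact Poisson intervals of the reads and the dotted line is 1 TPM. Muc13 lies lower and Muc16 higher in every E18.5 library, while Muc4 and Muc20 lie below 1 TPM in all 6 libraries.

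The question put to the members was whether their levels differed between the onset of lumen formation at E16.5 and the later stage. With limma on log2(TPM + 1), 5 of the 7 genes passed the filter of a mean of at least 1 TPM. Among these 5 genes, Muc16 and Cd24a were higher at E18.5 and Muc13 was lower, at an adjusted p under 0.05, while Muc1 and Prom1 did not pass. Muc16 reached the filter only through E18.5, where it was high. Its call and its part in the counts and median below are therefore a description. Of 22452 genes tested, 31.2% passed in either direction, 26.0% as higher at E18.5 and 5.22% as lower. With 5 genes tested, the counts of 2 and 1 are too small to be set apart from these shares. The libraries of both stages stood fully apart for 4 of the 5 tested members (5 of all 7) and for 53.3% of all genes tested. The median log2 fold change was 1.46 over the 5 tested members and 0.42 over all genes. Median-of-ratios scaling moved the median over all genes to 0.004 and the share of higher genes among those called from 83.3% to 38.0%, and quantile normalization gave 0.06 and 50.5%.

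**Figure D2:**
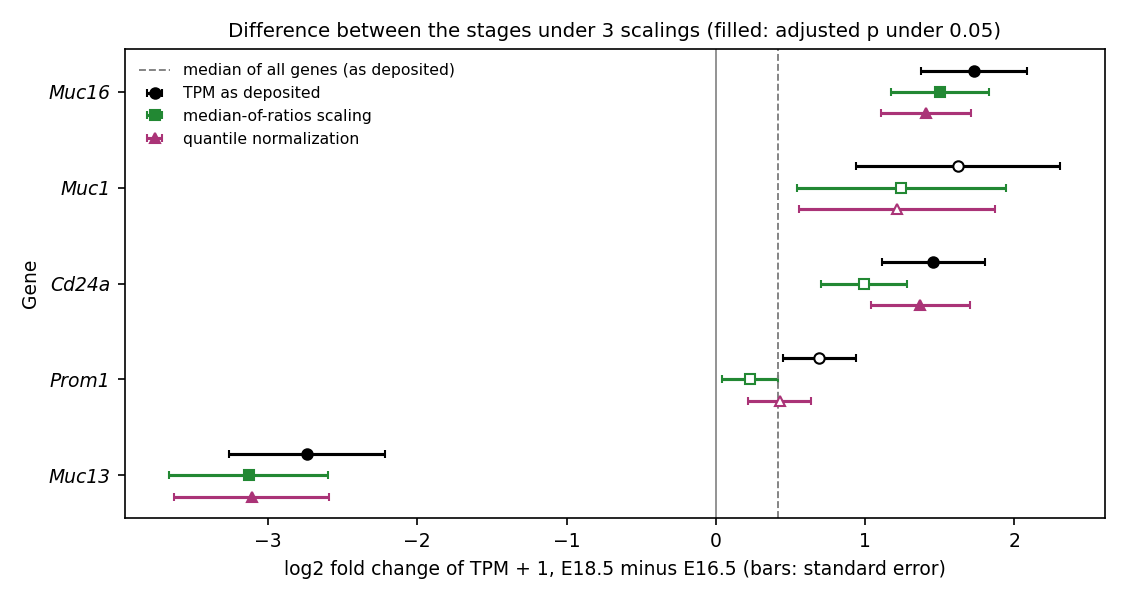
Log2 fold change of TPM + 1, E18.5 minus E16.5 (x axis), of the 5 genes tested (y axis) with the TPM as deposited, after median-of-ratios scaling and after quantile normalization; bars are standard errors, filled symbols have an adjusted p under 0.05 and the dashed line is the median of all genes, 0.42. Muc13 lies below 0 and the other 4 genes above 0 under each scaling, and Prom1 moves to 0.23 with median-of-ratios scaling.

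The makeup of the summed level of the 5 mucins differed between the stages. For replicates A, B and C in turn, the sum at E16.5 was 45.9, 21.6 and 37.3 TPM. At E18.5 it was 22.7, 27.4 and 28.3 TPM, so the stages overlapped. After median-of-ratios scaling the sum was 49.1, 24.2 and 48.7 at E16.5 against 19.6, 21.2 and 25.1 at E18.5, with a narrow overlap, so the direction of the sum was not settled, while the shares below do not depend on the scaling. Muc13 made up 66.4, 59.9 and 96.7% of this sum at E16.5 but 7.22, 24.4 and 6.02% at E18.5. Muc1 made up 29.4, 35.9 and 2.44% at E16.5 and 81.1, 56.0 and 75.7% at E18.5. Muc16 went from between 0.332 and 1.35% to between 8.17 and 16.2%. The shares of a sum depend on each other, so they are given as a description.

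Muc1 had 13.5, 7.76 and 0.908 TPM in the 3 libraries of E16.5, given here and throughout in the order A, B, C, and 18.4, 15.3 and 21.4 TPM at E18.5. All E18.5 values lay above all E16.5 values, and replicate C of E16.5, with 17 reads (95% exact Poisson interval 0.529 to 1.45 TPM), lay far below the other two. The mean went from 7.40 ± 6.31 to 18.4 ± 3.03 TPM (SD, n = 3 each). The difference did not pass in limma, with a log2 fold change of 1.62 (SE 0.68, 95% interval 0.01 to 3.24) and an adjusted p of 0.105. The exact two-sided permutation test gave 0.1, the smallest p that 3 libraries against 3 allow. The call was missed in each of the 15 alternatives, with adjusted p from 0.0519 to 0.261. The size rested on replicate C of E16.5, without which the log2 fold change was 0.77 (adjusted p = 0.0913).

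Within E16.5, Muc1 and several marker lists shared an order of libraries. The summed level of the 10 pancreatic genes was 2396, 234 and 81.2 TPM at this stage, and Muc1 was highest in A and lowest in C. Muc4, Muc20 and Muc16 had the same order, although Muc20 rested on 16, 4 and 1 reads. So did the summed gut and gallbladder genes, with 156, 135 and 130 TPM, and the summed mesothelial genes. The summed pancreatic genes fell to between 25.0 and 86.4 TPM at E18.5, where Muc1 was highest. Of the pancreatic genes, Ctrb1 and Cpa1, which encode digestive enzymes, were lower at E18.5 among 8 tested, and none was higher. Over all genes 5.22% were called lower. Ctrb1, which fell by 4.77 on the log2 scale (SE 1.49, adjusted p = 0.0480), had its highest level, 1914 TPM, in replicate A of E16.5. None of the 10 genes was at 0 in all libraries, and their part in the levels of Muc1 was not tested.

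Muc4 was low in all libraries, with 0.903, 0.480 and 0.171 TPM at E16.5 and 0.187, 0.399 and 0.377 TPM at E18.5. The stages overlapped and the highest and the lowest value both came from E16.5. Its means were 0.518 ± 0.367 and 0.321 ± 0.117 TPM (SD, n = 3 each), which is below the filter, so it was not tested with the other genes. Without the filter the log2 fold change was -0.18 (adjusted p = 0.651), and the exact permutation p was 0.5.

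Muc20 had 0.463, 0.127 and 0.0311 TPM at E16.5 and 0.617, 0.534 and 0.550 TPM at E18.5. These rested on 16, 4 and 1 reads at E16.5 and on 17, 11 and 9 reads at E18.5. The value in replicate C of E16.5 lay under the level of 3 reads, 0.0934 TPM. The stages did not overlap in value. The 95% exact Poisson interval of replicate A at E16.5, 0.265 to 0.752 TPM, covered all 3 values of E18.5. Those of B (0.0347 to 0.326 TPM) and C (0.000788 to 0.173 TPM) lay below these values. The intervals at E18.5 were wide as well, with 0.360 to 0.988, 0.267 to 0.956 and 0.252 to 1.04 TPM. The interval of B at E16.5 thus overlapped those of B and C at E18.5. Without the filter the log2 fold change was 0.39 and did not pass (adjusted p = 0.252). Reads from the stretch that Muc4 and Muc20 share could be assigned to either or to none, and both levels are uncertain for that reason.

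Muc13 was the member that fell. It had 30.5, 12.96 and 36.0 TPM at E16.5 and 1.64, 6.70 and 1.70 TPM at E18.5. Every E16.5 library lay above every E18.5 library, with the lowest E16.5 and the highest E18.5 value both in replicate B. The mean went from 26.5 ± 12.0 to 3.35 ± 2.90 TPM (SD, n = 3 each), 7.92-fold lower. The log2 fold change was -2.74 (SE 0.53, limma adjusted p = 0.0146), lower than that of all but 0.512% of the genes tested. It passed in 14 of 15 alternatives and missed only without replicate A of E18.5 (-2.47, adjusted p = 0.0539). At E18.5 the reads were few, with 34, 104 and 21 per library. In bulk RNA, fewer cells of a type and less of the RNA per cell cannot be told apart.

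Megakaryocyte transcripts moved in the same libraries as Muc13. All 8 genes of the list, which encode platelet and megakaryocyte proteins, were lower at E18.5, beside 5.22% of all genes tested, with a median log2 fold change of -4.39. Their summed level was 5825, 3350 and 9679 TPM at E16.5 and 95.2, 772 and 229 TPM at E18.5. At E16.5 both Muc13 and the sum were highest in replicate C and lowest in B, and at E18.5 both were highest in B. The sum was then lowest in A. The 95% exact Poisson intervals of Muc13 in A (1.13 to 2.29 TPM) and C (1.05 to 2.60 TPM) overlapped, so their order was not settled. The chemokine gene Pf4 had 1830, 1112 and 3505 TPM at E16.5 and 15.8, 273 and 57.0 TPM at E18.5. Other genes of this list were Ppbp, a platelet chemokine (log2 fold change -4.49, SE 0.76, adjusted p = 0.0121), Gp5 (-4.47) and Tubb1 (-4.39). At E16.5 Muc13 equalled 0.372 to 0.524% of the sum, and at E18.5 it was 0.743 to 1.72%. The lineage antigens used to deplete blood cells before the sort include none of these 8 genes. No megakaryocyte gene was at 0 in all libraries, and the part of such cells in the level of Muc13 was not tested.

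The genes whose pattern over the 6 libraries was most like that of Muc13 were Trim58, Itgb2, an integrin of blood cells, and Vav1, a signalling protein of blood cells. Their Pearson correlations of log2(TPM + 1) with Muc13 were 0.998, 0.997 and 0.996 among 11379 protein-coding genes. Itgb2 had 93.4, 44.9 and 125 TPM at E16.5 and 3.07, 14.2 and 3.15 TPM at E18.5. With 6 libraries and a difference between the stages, such values are a description, and the stage difference enters each of them.

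Of the 5 members tested, Muc16 had the largest ratio between the stage means. It had 0.531, 0.292 and 0.124 TPM at E16.5 and 1.85, 4.44 and 4.23 TPM at E18.5. Every E18.5 value lay above every E16.5 value, and replicate A of E18.5 was the lowest of its stage. The mean went from 0.316 ± 0.205 to 3.51 ± 1.44 TPM (SD, n = 3 each), 11.1-fold higher. The log2 fold change of TPM + 1, which understates the change of a low gene, was 1.73 (SE 0.35, limma adjusted p = 0.0165), higher than that of 97.9% of the genes tested. Muc16 passed the filter only through E18.5, where it was high, so its call and its place among the tested genes are a description. Without the filter, limma gave Muc16 the same log2 fold change, with an adjusted p of 0.0338. A pseudocount of 0.1 gave 3.15, and limma voom on recovered reads gave 3.38. The call was kept in 13 of 14 alternatives and missed only without replicate B of E18.5 (1.57, adjusted p = 0.0546). As the gene is long, its level rested on 26 to 120 reads per library at E16.5 and on 334 to 598 at E18.5.

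Mesothelial transcripts rose alongside Muc16. All 8 genes of the mesothelial list were higher at E18.5, beside 26.0% of all genes tested, with a median log2 fold change of 1.90. Of these, Bnc1, Rspo1, Lrrn4 and Upk1b had E16.5 means under 1 TPM and reached the filter only through E18.5. Their summed level was 14.2, 7.20 and 4.79 TPM at E16.5 and 51.8, 108 and 100.3 TPM at E18.5. At E16.5 both the sum and Muc16 were highest in replicate A and lowest in C, and at E18.5 both were highest in B and lowest in A. Msln, which encodes mesothelin, a binding partner of Muc16, had 2.70, 0.243 and 0.178 TPM at E16.5 and 14.2, 37.7 and 38.0 TPM at E18.5 (log2 fold change 4.02, SE 0.55, adjusted p = 0.0089). The uroplakin genes Upk1b and Upk3b (2.66 and 2.60) and Gpm6a (1.92) were the next largest. At E16.5 Muc16 equalled 2.58 to 4.05% of the sum, and 3.58 to 4.22% at the later stage, ranges that overlap. No mesothelial gene was at 0 in all libraries, and the part of mesothelial cells in the level of Muc16 was not tested. The genes most like Muc16 over the 6 libraries were Fer1l5, Gabpb1 and Napb, with Pearson correlations of 0.996, 0.995 and 0.995.

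**Figure D3:**
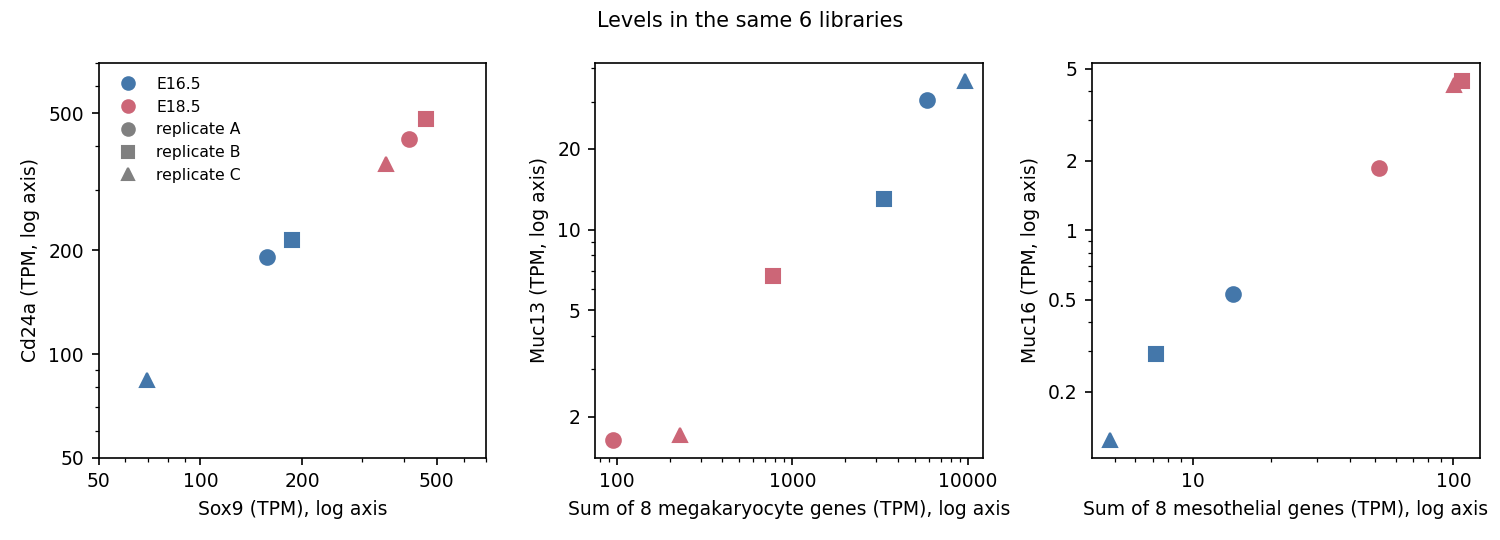
Levels in TPM (both axes, log scale) of Cd24a beside Sox9, of Muc13 beside the sum of 8 megakaryocyte genes and of Muc16 beside the sum of 8 mesothelial genes, with 1 symbol per library, E16.5 in blue and E18.5 in red. Cd24a lies between 100.5 and 121% of Sox9 in every library, while the megakaryocyte sum runs from 95.2 to 9679 TPM and the mesothelial sum from 4.79 to 108 TPM.

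Prom1 had 60.3, 67.5 and 41.2 TPM at E16.5 and 100.2, 108 and 66.6 TPM at E18.5. The stages overlapped by a narrow margin, as replicate C of E18.5 lay just below replicate B of E16.5. Replicate C was the lowest at each stage. The mean went from 56.3 ± 13.6 to 91.7 ± 22.0 TPM (SD, n = 3 each). The log2 fold change of 0.69 (SE 0.24, 95% interval 0.12 to 1.27) did not pass in limma (adjusted p = 0.0671), and the exact permutation p was 0.2. It passed without replicate C of E18.5 (0.90, adjusted p = 0.0369), and with median-of-ratios scaling the value was 0.23 (adjusted p = 0.433). The most similar genes were Man1b1, Tyw5 and Lama1, a laminin chain, each with a correlation of 0.999. Lama1 had 70.9, 78.5 and 48.3 TPM at E16.5 and 112.7, 116.8 and 75.9 TPM at E18.5.

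Cd24a had 191, 215 and 83.9 TPM at E16.5 and 422, 482 and 355 TPM at E18.5. Every E18.5 library exceeded every E16.5 library, and replicate C was again the lowest at each stage. The mean went from 163 ± 69.6 to 419 ± 63.7 TPM (SD, n = 3 each), 2.57-fold higher. The log2 fold change was 1.46 (SE 0.34, limma adjusted p = 0.0233), higher than that of 95.6% of the genes tested. It passed in 12 of 15 alternatives. The call was missed with median-of-ratios scaling (0.99, adjusted p = 0.0610), without replicate A of E18.5 (1.45, adjusted p = 0.0697) and without replicate B of E18.5 (1.35, adjusted p = 0.0682).

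Cd24a ran close to Sox9, the gene on which the sort was based. Sox9 had 157, 186 and 69.5 TPM at E16.5 and 415, 466 and 353 TPM at E18.5. Cd24a equalled 121, 115 and 121% of Sox9 at E16.5 and 102, 104 and 100.5% at E18.5. Prom1 was a smaller share of Sox9 at E18.5, with 38.3, 36.3 and 59.3% at E16.5 and 24.2, 23.2 and 18.9% at E18.5. Muc1 was the most uneven, from 1.31 to 8.59% at E16.5 and from 3.30 to 6.07% at E18.5. Sox9 was taken as the reference after its values were seen, and no test was made of these shares. Among the genes most like Cd24a over the 6 libraries were the collagen receptor gene Ddr1 and the polarity gene Dlg5, each with a correlation of 0.999. Ddr1 had 69.4, 85.8 and 29.3 TPM at E16.5 and 171, 197 and 138 TPM at E18.5.

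**Figure D4:**
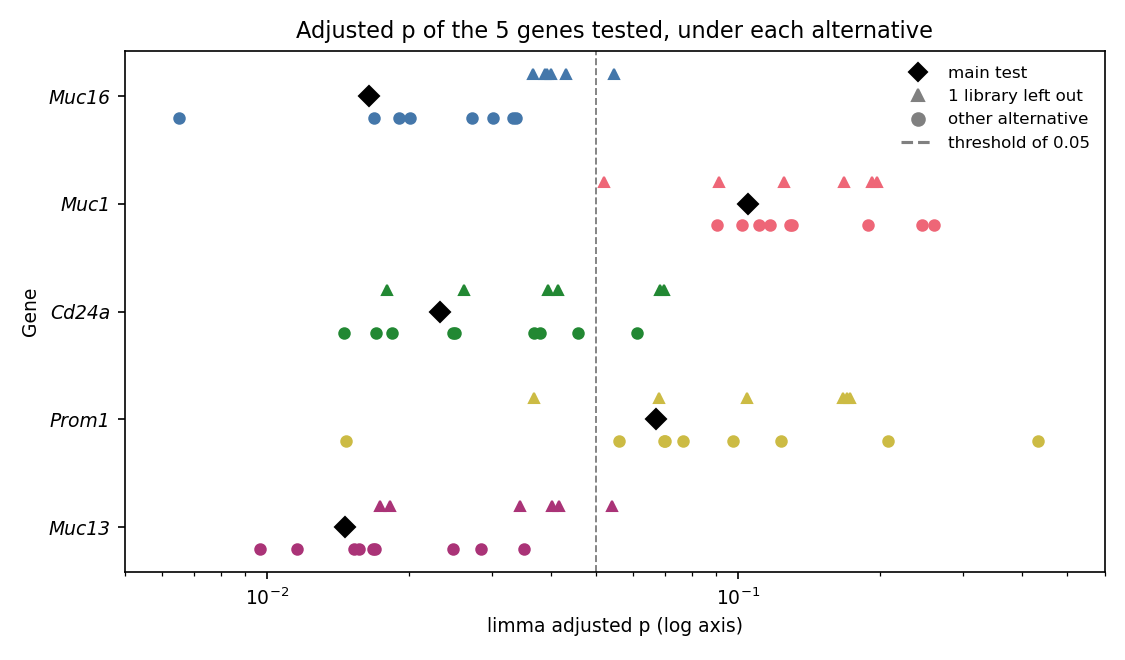
Adjusted p of limma (x axis, log scale) for the 5 genes tested (y axis) in the main test (black diamonds), with 1 library left out (triangles) and under other alternatives (circles); the dashed line is the threshold of 0.05. Muc16 and Muc13 each cross it in 1 alternative and Cd24a in 3, Prom1 passes in 2, and Muc1 in 0.

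Cholangiocyte markers rose with Cd24a, and hepatoblast markers fell. Of 12 cholangiocyte genes, 10 were higher at E18.5 and none was lower, with a median log2 fold change of 1.55. Over all genes 26.0% were called higher. The calls of the lists used the TPM as deposited, and the lists were not counted under another scaling. The largest changes were those of Spp1, which encodes osteopontin (3.19, SE 0.50, adjusted p = 0.0106), the secretin receptor gene Sctr (2.96), Krt19, a duct keratin (1.94), and Epcam (1.78). Of 12 hepatoblast genes, 7 were lower and none was higher, beside 5.22% of all genes called lower. Among the 7 were Afp, the fetal albumin-like protein (-2.90), Apoa1 (-2.23), Dlk1 (-2.17) and Apoa2 (-1.69). The summed hepatoblast genes nonetheless had between 179600 and 228298 TPM at E16.5 and between 41713 and 103374 TPM at E18.5, in libraries labelled as cholangiocytes. Replicate C of E16.5, where the 6 members other than Muc13 had their lowest value of that stage, had the highest hepatoblast sum and the lowest cholangiocyte sum, 947 TPM. The part of hepatoblasts in these levels was not tested.

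B lymphoid and neutrophil genes, from other cells that use Cd24a, were counted beside the 26.0% of all genes called higher. Of 8 B lymphoid genes 3 were higher at E18.5, Pax5 and Ebf1 among them, and their sum went from between 8.04 and 9.58 TPM to between 17.1 and 32.6 TPM. Pax5 and Ebf1 reached the filter only through E18.5. Of 8 neutrophil genes 5 were higher, led by S100a8 and S100a9, and the sum went from between 37.5 and 54.2 TPM to between 73.7 and 237 TPM. The highest sums of both lists were in replicate B of E18.5, which was also the highest for Cd24a. Both cell types carry antigens that the bead depletion targeted, and their part in the level of Cd24a was not tested. Erythroid genes gave 0 calls in limma among 8 tested (0 at an unadjusted p under 0.05), endothelial genes 1 of 7 (Egfl7) and mesenchymal genes 2 of 8 (Dcn and Pdgfra), all 3 higher at E18.5. Gut and gallbladder genes gave 2 of 7, both lower (Krt20 and Tff3), beside 5.22% of all genes called lower.

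Other mucins were compared with the members. Of 11 further surface mucins and sialomucins, 7 were tested, 3 were higher at E18.5 and none was lower, with a median log2 fold change of 0.78. These were Podxl, the podocalyxin of apical membranes (1.44, SE 0.27, adjusted p = 0.0142), the endothelial sialomucin Emcn (1.10) and Cd164 (0.78). Emcn reached the filter only through E18.5. Podxl had 21.04, 15.9 and 10.4 TPM at E16.5 and 33.3, 49.6 and 47.7 TPM at E18.5. The prominin paralog Prom2 had between 0.0475 and 0.517 TPM and was not tested. Of the 5 gel-forming mucins, which are secreted and build mucus, Muc6 and Muc2 were tested in limma and neither passed (0 of the pair at an unadjusted p under 0.05). Muc6 had 16.9, 7.71 and 5.22 TPM at E16.5 and 7.26, 12.2 and 9.15 TPM at E18.5, and its highest value came from the library with the highest pancreatic sum. Muc2 had 4.52, 1.85 and 0.229 TPM at E16.5 and between 0.390 and 1.67 TPM at E18.5. The share of all genes called higher, 26.0%, stands beside the 3 of 7 surface mucins.

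Mucins carry sugar chains that start with N-acetylgalactosamine on serine or threonine. Genes linked to the building of these chains were counted in the same way. Of 29 such genes, 20 were tested, with 5 higher and 3 lower at E18.5, 12 not called and a median log2 fold change of -0.18. Over all genes 26.0% were called higher and 5.22% lower. The 5 of 20 called higher lay near the share of all genes, and the 3 lower are too few to be set apart. Among those higher were Galnt3 (1.63, SE 0.37, adjusted p = 0.0213), which starts the chain, and Galnt18 (1.37), of the same family. C1galt1c1 (0.97), the chaperone of the core enzyme, was also higher. Galnt3 had 4.08, 2.87 and 0.889 TPM at E16.5 and 9.66, 9.84 and 8.50 TPM at E18.5. Those lower were Gcnt1 (-1.53) and Gcnt4 (-0.82), which branch the chain, and the sialyltransferase St3gal1 (-1.15, SE 0.18, adjusted p = 0.0106). St3gal1 had 98.6, 82.9 and 123 TPM at E16.5 and 44.7, 38.3 and 51.7 TPM at E18.5, with no overlap.

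Genes of the microvillus and brush border, the structures on which the mucins and Prom1 sit, gave 2 higher and 1 lower of 14 tested, with a median log2 fold change of 0.10, beside the same 26.0% and 5.22% of all genes. Ezr, which encodes the linker ezrin, was higher (1.22, SE 0.24, adjusted p = 0.0152), and so was Eps8, an actin-capping protein (1.44). Cdhr2, an adhesion protein between microvilli, was lower (-3.00, SE 0.28, adjusted p = 0.0060), with 88.3, 79.2 and 95.2 TPM at E16.5 and 8.36, 7.20 and 16.46 TPM at E18.5. Villin (Vil1) had 29.6, 19.9 and 8.86 TPM at E16.5 and 26.8, 21.8 and 18.3 TPM at E18.5, and the stages overlapped.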

How the data were processed

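RNA of SOX9-GFP+ cells was sequenced in 6 libraries. The authors trimmed the reads, checked them with FastQC 0.11.7, aligned them to GRCm38 (HISAT2 2.1.0), counted reads by gene (HTSeq 0.5.4p3) and deposited TPM for 52550 genes (versions from the submitters' processing notes). TPM sum to the same total in each library, so depth was recovered as TPM × exon length (GENCODE vM21), which was whole within 0.01 for 100% of 180057 nonzero values. Intervals are 95% exact Poisson and the floor is 3 reads, both for counting error only. A chi-square per degree of freedom of 15.1 or more between libraries of a stage showed no duplicate.

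Stage differences were tested by limma 3.58.1 under R 4.3.3 (eBayes with a trend) on log2(TPM + 1) for the 22452 genes whose mean reached 1 TPM, p-values were adjusted over all of them (Benjamini-Hochberg), and single genes also had exact permutation tests (SciPy 1.17.1). The script was tested on simulated data. Sequence likeness was searched with BLAST 2.17.0. The members and all gene lists were chosen with earlier results of these data known. Named are the 7 members, up to 4 called genes of each list with the largest changes, genes a result turns on, and for each member the 3 protein-coding genes of at least 5 TPM with the highest correlation. Some genes shown for their levels or for counts of 5 or fewer were chosen after their values were seen. A few of the genes so named are not reported here. Alternatives were another pseudocount, filter, scaling and variance prior, limma voom, a replicate block and leaving out each library.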

Additional observations from a re-analysis of the deposited data

How the results depend on the processing

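Each stage difference of the 5 tested members kept its direction under each alternative run, which were 15 per gene and 14 for Muc16, which has no value at a mean of at least 5 TPM. Of called members, Cd24a missed the threshold with median-of-ratios scaling (0.99). Prom1, which was not called in the main test, passed with the letters as a replicate block (0.69, adjusted p = 0.0147). The sources do not say that the letters pair the libraries, and same-letter correlations were weak (-0.042, 0.081 and 0.140 for A, B and C). With so few libraries these values cannot show whether the letters mark a pair. The block gave 7314 calls over all genes against 7000. Without 1 library, the differences ranged from -3.25 to -2.46 for Muc13, 1.57 to 2.03 for Muc16, 1.04 to 1.71 for Cd24a, 0.49 to 0.90 for Prom1 and 0.77 to 2.23 for Muc1. Muc13 was -2.47 and Cd24a 1.45 without replicate A of E18.5, Muc16 was 1.57 and Cd24a 1.35 without replicate B of E18.5, and all 3 then missed the threshold, whereas Prom1 passed without replicate C of E18.5 (0.90). The untested Muc4 ranged from -0.35 to 0.001 and Muc20 from 0.29 to 0.54. Members called higher ranged from 0 to 3 and lower from 0 to 1 without 1 library, and the members called higher numbered 3 with the replicate block and 1 at a mean of at least 5 TPM and with median-of-ratios scaling.

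Of all genes, 7000 were called, 5828 higher and 1172 lower. Without a filter 4282 were called, 3468 of them higher. Median-of-ratios scaling gave 3818 calls, 1450 higher and 2368 lower, and quantile normalization 3796, with 1916 higher and 1880 lower. Without 1 library the calls lay between 1472 and 5686 (the lowest when E18.5 replicate A was dropped), from 1038 to 4622 higher and from 434 to 1064 lower. The cause was not tested. Depth limits Muc20 and Muc4, which rest on 1 to 91 reads per library.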

Other observations

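The genes most like the remaining members over the 6 libraries, among 11379 protein-coding genes, were Pxdn, Crocc and B4galt4 for Muc1 (Pearson correlations of 0.991, 0.987 and 0.987), Stard7, Dnph1 and Rmdn3 for Muc4 (0.986, 0.977 and 0.962) and 8030462N17Rik, Ttll5 and Ube2w for Muc20 (0.994, 0.993 and 0.991). B4galt4, a galactosyltransferase, had 5.85, 4.69 and 1.20 TPM at E16.5 and 7.14, 7.16 and 10.4 TPM at E18.5. These are descriptions over 6 libraries with 2 stages, and the highest of many correlations over so few libraries is large for any gene.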
